A study of Rattus norvegicus with 4 samples.

Results

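The comparison described here is that of the irradiated left striatum of gamma knife treated rats with the left striatum of control rats, read on a pair of 2-colour arrays. By their titles these are 2 of the 4 arrays of the study. The other 2 arrays set the right striatum of the same irradiated rats, which was not targeted, against the right striatum of control rats, and their values are set beside the left ones where they bear on a result.

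All animals were adult male Wistar rats, an outbred laboratory strain, 4 in the study. Rats were anaesthetised with pentobarbital (40 mg/kg) and fixed in a stereotactic frame, and in the irradiated rats 1 striatum received a central maximum of 60 Gy over 30 min through a 4 mm collimator of a Leksell gamma knife, which converges many gamma ray beams on a small target. Brains were taken 16 h after the exposure, and total RNA was extracted from the striata of each side, dissected from individual rats. The labels describe the control tissue as striatum at 16 h and do not say how many of the rats were controls, or whether anaesthesia and frame applied to these as well. The dose falls off from its central maximum, so the irradiated tissue was not exposed evenly. On array 1 the irradiated RNA was labelled with Cy5 and control RNA with Cy3, and on array 2 the dyes were exchanged. Both arrays carry the same replicate number, and so were treated as repeat measurements of 1 pair of RNAs. There is therefore 1 replicate, no variation between animals is measured, and no p-value can be given.

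The striatum is the input nucleus of the basal ganglia and consists mainly of dopamine-responsive projection neurons with astrocytes, oligodendrocytes and their precursors, microglia and vessels among them. Ionising radiation breaks DNA, and the resulting activation of the transcription factor p53 induces genes that arrest the cell cycle or start apoptosis. In brain, dividing oligodendrocyte precursors are known as a radiosensitive population, and microglia and astrocytes are known to react to injury within hours by producing chemokines, cytokines and acute phase proteins. In RNA from a whole tissue, fewer cells of a type and less RNA per cell cannot be told apart.

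Each value below is log2 of irradiated over control, on array 1 and then on array 2 unless a mean is given. A mean is followed by ± and its distance to each array, a measure of technical spread alone. A gene's value is the mean over its probes that have exactly 1 annotated gene, and a gene is called higher or lower when it lay past 1.5-fold (0.585 on this scale) on array 1 and on array 2 with the same sign. Of 14878 genes, 175 were higher (1.18%) and 153 lower (1.03%), and these percentages (2.2% either way) are the background against which each gene list is read. The median gene lay at 0.00 with a median distance of 0.166 to either array, and 46.0% of genes had the same sign on both arrays. Above 0 on both arrays lay 23.0% of all genes and below 0 on both 23.0%. These shares are the background for such counts in the lists. As deposited, before the sign of array 2 was turned, the 2 arrays correlated positively over all features at 0.743. The direction of array 2 is not stated with the values, so every call, list share and list median below rests on the dyes named in the labels.

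**Figure D1:**
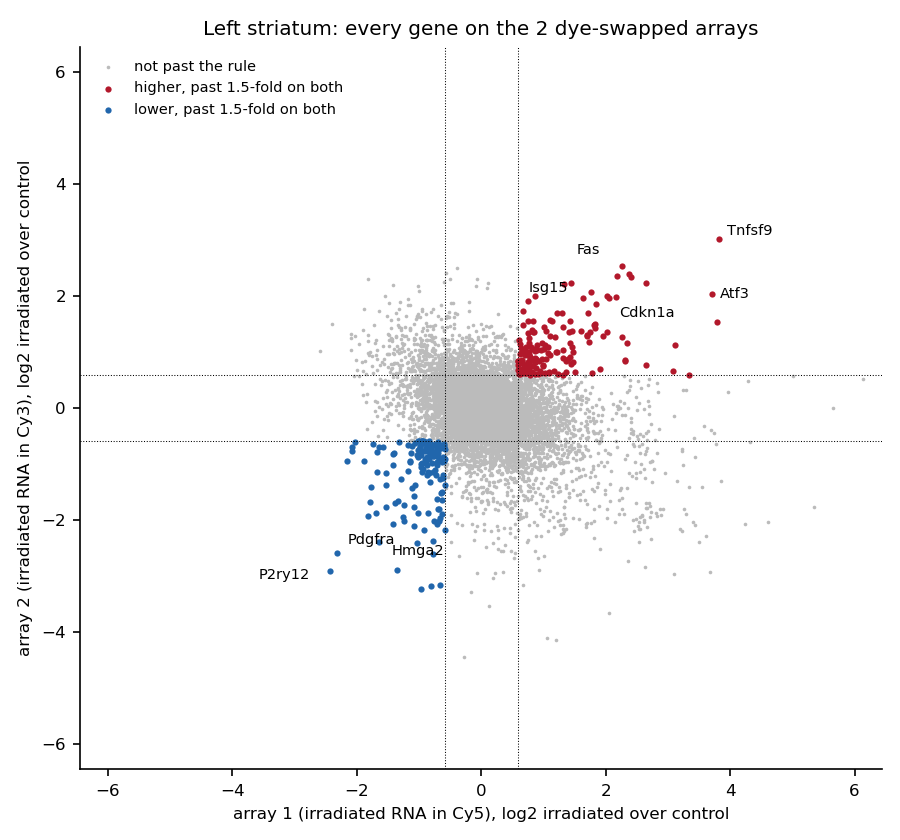
Each point is 1 gene, with its log2 value of irradiated over control left striatum on array 1 (horizontal axis) and on array 2 after its sign was turned (vertical axis). Dotted lines mark 1.5-fold. The 175 higher genes (red) include Tnfsf9, Atf3 and Fas, and the 153 lower genes (blue) include P2ry12 and Pdgfra.

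Past 2-fold on both arrays were 49 higher and 28 lower genes, and past 4-fold 7 higher and 2 lower genes. The 7 were Tnfsf9, Bcl3, Mgmt, Fas, Fignl1, Pla1a and Atf3, and the 2 were P2ry12 and Pdgfra. Tnfsf9, a costimulatory ligand for T cells of the TNF family, read 3.82 and 3.01. P2ry12, the ADP receptor of resting microglia, read -2.43 and -2.91. Pdgfra, the receptor by which platelet-derived growth factor drives oligodendrocyte precursors, read -2.32 and -2.58. All of these except Fas were measured by 1 probe each. Of the 328 genes past the rule 254 had 1 probe, beside 9224 of all 14878 genes, so single-probe genes were over-represented among the calls.

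A stricter group consists of the 18 genes with several probes of which every probe was past the rule. The 12 higher ones were Fas, Ccng1, Cdkn1a, Mlf1, RT1-CE16, RT1-A2, Fos, Csf1, S100a10, Bhlhe40, Ppp1r36 and Spetex2d. The 6 lower ones were Bcas1, C1qa, Tspan2, Scn4b, Cxadr and Fgl1. Mlf1, a myeloid leukaemia factor, averaged 1.62 ± 0.20, with its 2 probes at 1.10 and 2.15. Csf1, the growth factor that maintains microglia and macrophages, had 0.88 and 0.87 on the arrays and 0.81 and 0.93 by probe. Cxadr, an adhesion molecule of cell junctions, read -1.65 and -0.69.

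**Figure D2:**
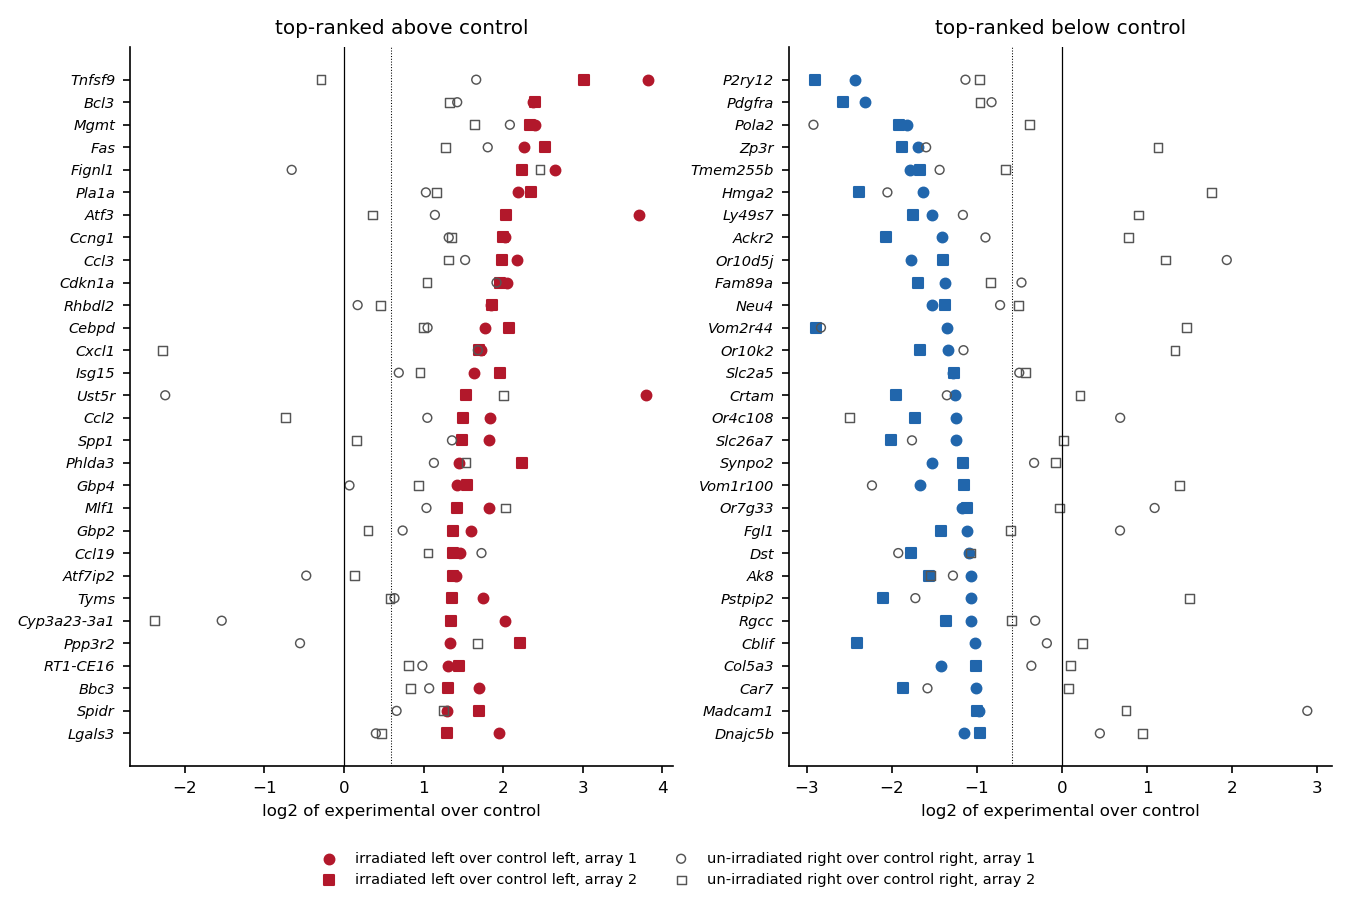
The 30 top-ranked higher genes (left panel, red) and the 30 top-ranked lower genes (right panel, blue) are ordered by the smaller of their 2 left values. Filled circles and squares are the irradiated left striatum over control on arrays 1 and 2, open symbols are the un-irradiated right striatum over control, and dotted lines mark 1.5-fold. The open symbols of Ust5r, Fignl1, Cxcl1, Hmga2 and Vom2r44 lie on opposite sides of 0, whereas those of Bcl3, Mgmt, Ccng1, P2ry12 and Pdgfra lie close together on the side of the filled ones.

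Genes of the p53 response lay above control on the left. Of 36 measured members 7 were higher (19.4%) and 0 lower, 15 lay above 0 on both arrays and 3 below, and the median was 0.28. The 7 were Fas, Ccng1, Cdkn1a, Phlda3, Bbc3, Bax and Gadd45g. Fas, the death receptor, read 2.26 and 2.53. Ccng1, which encodes cyclin G1, read 2.02 and 1.99, and Cdkn1a, which encodes the cell cycle inhibitor p21, read 2.05 and 1.96. All 3 lay near or past 4-fold above control on both arrays, and their arrays differed little. On the un-irradiated right 5 of the 36 members were higher (13.9%) and 1 lower, where 1.71% and 1.46% of all genes were, and the 5 were among the 7 of the left. There Fas read 1.81 and 1.28, Ccng1 1.32 and 1.35, Cdkn1a 1.92 and 1.04, Phlda3 1.13 and 1.53 and Bbc3 1.07 and 0.84, so these genes were above control on either side. By the rule within both dye orientations 3 members (Ccng1, Btg1 and Perp) were higher on the left than on the right and 0 lower, where 2.59% and 2.26% of all genes were. Were the sign of array 2 left as deposited, the list would hold 2 higher and 1 lower member with a median of -0.01.

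The pro-apoptotic members Bbc3 and Bax were past the rule with different sizes. Bbc3, which encodes Puma, read 1.69 and 1.31, while Bax, which permeabilises the mitochondrial membrane, read 0.77 and 0.78. Phlda3, an inhibitor of Akt signalling, read 1.44 and 2.24, and Gadd45g, a stress-induced growth arrest gene, 0.73 and 0.72. Other well known members did not pass. Mdm2, the ubiquitin ligase that degrades p53, read 0.49 and 1.05, and Zmat3, an RNA-binding p53 target, 0.37 and 0.46. By probe Mdm2 averaged 0.42, 0.51 and 1.38, and the last probe was past the rule at 1.31 and 1.45. Sesn1 and Sesn2, the sestrins, averaged -0.07 ± 0.34 and 0.35 ± 0.64, and Gadd45a averaged 0.17 ± 0.26. Gtse1, a G2 and S phase protein that holds p53 in check and that lay outside the list, read 1.69 and 1.28.

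Few DNA repair genes were past the rule. In the double-strand break and checkpoint list 1 of 36 members was higher and 0 lower, with 11 above 0 on both arrays, 1 below and a median of 0.09 that was -0.05 on array 2 alone, and in the excision, mismatch and direct repair list 1 of 39 was higher and 0 lower (median 0.06). The break repair gene was Fignl1, an ATPase of homologous recombination, at 2.65 and 2.23, and the direct repair gene was Mgmt, which reverses guanine alkylation, at 2.40 and 2.33. On the right, Mgmt read 2.08 and 1.64 and Fignl1 read -0.66 and 2.46, so the right arrays of Fignl1 lay on opposite sides of 0. Chek2, a checkpoint kinase, read 0.31 and 0.59 and did not pass, and H2ax, the histone phosphorylated at DNA breaks, averaged 0.18 ± 0.09. Spidr and Polq, which act in recombination and end joining and were not list members, read 1.29 and 1.69, and 1.10 and 1.57. On the right Spidr was past the rule too at 0.66 and 1.25, and Polq read 2.50 and -2.46, on opposite sides of 0.

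Cell cycle genes were mixed. Among 52 cyclins, mitotic and proliferation genes 1 was higher and 1 lower, while 21 lay below 0 on both arrays and 5 above, with a median of -0.13. The lower gene was the spindle checkpoint kinase Ttk at -0.66 and -1.27, and the higher one was the mitotic kinesin Kif2c, whose 2 probes disagreed at 0.04, for its RefSeq mRNA probe, and 1.67. Mki67, the proliferation antigen, read -1.68 and 0.11, Cdk1 -0.33 and -1.01, and Top2a -0.24 and -1.03. None of these 3 passed, and the arrays of Mki67 differed in sign. In the list of 47 replication and nucleotide supply genes, Tyms (thymidylate synthase) was higher at 1.75 and 1.36 and Pola2, a subunit of DNA polymerase alpha, lower at -1.82 and -1.92. The right arrays of Pola2 were far apart, at -2.92 and -0.38.

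Of 48 genes of the Bcl2 family, caspases and death signalling 3 were higher and 0 lower (6.25%, median 0.14). Ripk3, the kinase that starts necroptosis, read 0.85 and 1.36, and Birc3, an inhibitor of apoptosis in TNF receptor complexes, 0.76 and 1.25. Nlrp3, the sensor of an inflammasome that processes interleukin 1 beta, averaged 0.89 ± 0.26 over 10 probes that spanned 0.52 to 1.85, and did not pass by their median. Casp8, the caspase below death receptors, read 1.03 and -0.40, and its arrays disagreed in sign. Bcl2 averaged 0.01 ± 0.16.

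Chemokines had members past the rule in both directions. Of 50 measured chemokines and receptors 5 were higher (10%) and 2 lower (4%), and the list's median was -0.01. Ccl3, a monocyte attractant, read 2.17 and 1.99, and Cxcl1, a neutrophil attractant, 1.72 and 1.69. Ccl19, which draws lymphocytes and dendritic cells through Ccr7, read 1.46 and 1.37. The other higher members had less even data: Ccl9 read 2.31 and 0.84, and Ccl2, the main monocyte chemoattractant, averaged 1.66 ± 0.17 over 3 probes that spanned -0.06 to 4.33. By the median of its 3 probes, 0.72, it no longer passed. Cxcl10, an interferon-induced attractant of T cells, read 3.29 and 0.33 and did not pass. The lower members were Ackr2, a decoy receptor that removes inflammatory chemokines, at -1.41 and -2.07, and Cxcl12, which brain cells make without stimulation, at -0.60 and -0.90. On the right 4 members of the list were higher (8%) and 3 lower (6%), beside 1.71% and 1.46% of all genes. Ccl3 was higher there too at 1.52 and 1.31, as was Ccl19 at 1.73 and 1.06, whereas Cxcl1 read 1.68 and -2.28.

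Few cytokines and NF-kappaB genes were past the rule. Of 65 interleukins, cytokines and their receptors 2 were higher and 2 lower. Il1b, which encodes interleukin 1 beta, was even on the arrays at 1.07 and 1.09 but uneven by probe, from 0.10 to 2.13, and Csf1 is given above. The lower members were Il7r, a lymphocyte survival receptor, at -1.07 and -0.62, and Il12a at -0.76 and -0.86. Il6 read 0.38 and 0.91, and Tnf -0.71 and 0.50, and neither passed. Among 36 NF-kappaB proteins and regulators Bcl3, a nuclear cofactor of the p50 and p52 subunits, was higher at 2.38 and 2.40, and so was Irak3, a brake on Toll-like receptor signalling, at 1.23 and 0.61. The probes of Irak3 disagreed, with means of -0.13 and 1.98. Nfkbia, the inhibitor that NF-kappaB itself induces, averaged -0.12 ± 0.15. In the list of 28 Toll-like and other pattern receptors 0 passed in either direction.

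Upstream sequence of 3 of these genes is shown because their family is known in mammals for control by NF-kappaB. The stretches are from RefSeq on the GRCr8 assembly, on the gene's strand, and capitals mark GGG and CC with 5 free bases between them, on either strand. Overlapping matches on opposite strands run together.
Bcl3, chr1:88613561-88613620, minus strand, bases -65 to -6 from the start site: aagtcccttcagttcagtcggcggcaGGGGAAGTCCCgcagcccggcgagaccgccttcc
Cxcl1, chr14:17479382-17479441, minus strand, bases -120 to -61: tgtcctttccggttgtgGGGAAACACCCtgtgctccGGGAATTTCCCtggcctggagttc
Ccl19, chr5:61761210-61761269, minus strand, bases -105 to -46: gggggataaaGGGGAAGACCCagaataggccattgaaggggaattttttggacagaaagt
The motif is loose and common. A match occurred in 59.7% of 139 higher genes with a promoter in the table, 58.0% of 119 lower genes and 58.7% of 12238 measured genes, so its presence does not set the higher genes apart. The window runs from 250 bases before to 50 bases after the start site.

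Interferon-stimulated genes were higher in several members and lower in none by the rule. Of 51 measured 9 were higher (17.6%) and 0 lower, 22 lay above 0 on both arrays and 8 below, and the median was 0.21. The 9 were Isg15, Gbp4, Gbp2, Isg20, Irf7, Eif2ak2, Parp9, Lgals3bp and Mx1. Isg15, a ubiquitin-like modifier, read 1.64 and 1.96. Gbp4 and Gbp2, guanylate-binding GTPases of cell-autonomous defence, read 1.42 and 1.55, and 1.60 and 1.38. Isg20, an exonuclease that degrades RNA, read 0.76 and 1.90. The smaller ones were steady, with Eif2ak2, the double-stranded RNA kinase PKR, at 0.77 and 0.80, and Mx1, an antiviral GTPase, at 0.62 and 0.63.

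Several interferon genes fell short on 1 array. Irf9, a subunit of the factor that binds interferon-stimulated response elements, read 0.99 and 0.47, Ifitm3, which blocks viral entry, 0.54 and 1.2, and Oas1a, an activator of RNase L, 0.50 and 0.79. Irf1 averaged -0.01 ± 0.02. Ifit1, an RNA-binding member of the same response, read 0.85 and -0.80, so its arrays disagreed. Outside the list, Oas1i was past the rule at 0.69 and 0.73, and Ifitm7 at 0.77 and 0.95. On the right 2 members of the list were higher (3.92%) and 1 lower (1.96%), beside 1.71% and 1.46% of all genes. The list's right median was 0.12. By the 1.5-fold rule within both dye orientations 9 members were higher and 1 lower on the left than on the right. The shares of all genes were 2.59% and 2.26%.

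Promoter stretches of 6 of the 9 are shown since they carry the interferon-stimulated response element. Capitals mark GAAA and GAAA with 2 free bases between them, which reads as TTTC and TTTC where the match lies on the other strand.
Gbp2, chr2:234005657-234005726, plus strand, bases -70 to -1: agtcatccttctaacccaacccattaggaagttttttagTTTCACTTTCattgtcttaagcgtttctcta
Gbp4, chr2:233978426-233978485, plus strand, bases -60 to -1: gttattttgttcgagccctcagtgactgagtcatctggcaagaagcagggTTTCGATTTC
Isg20, chr1:142239944-142240003, plus strand, bases -115 to -56: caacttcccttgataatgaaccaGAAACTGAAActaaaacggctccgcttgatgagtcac
Eif2ak2, chr6:21941094-21941153, plus strand, bases -60 to -1: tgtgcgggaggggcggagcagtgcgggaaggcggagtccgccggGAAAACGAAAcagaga
Irf7, chr1:205800059-205800118, minus strand, bases -95 to -36: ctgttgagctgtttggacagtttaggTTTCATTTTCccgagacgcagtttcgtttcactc
Lgals3bp, chr10:104127861-104127920, minus strand, bases -72 to -13: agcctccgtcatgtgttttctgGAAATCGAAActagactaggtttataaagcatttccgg
All 6 matches lie within the last 100 bases before the start site. Among the 8 higher interferon members that have a promoter entry, 6 held a match (75.0%), beside 63.2% of all 38 measured members with one, so the match was common in the list whether or not a member was higher. Over all genes, a match was held by 12.9% of the 139 higher genes, 4.20% of the 119 lower genes, 3.43% of 12238 measured genes and 3.92% of all 33469 promoters. The AP-1 motif TGANTCA was held by 13.7% of higher genes, 5.04% of lower genes and 6.17% of measured genes, and the CRE motif TGACGTCA by 4.32%, 0.0% and 2.47%. The CRE share of higher genes was 6 of 139, among them Spetex2d and Spetex2f, both matched at base -139. The E-box, C/EBP and heat shock motifs were counted as well. The E-box motif was held by 4.32% of higher, 2.52% of lower and 8.05% of measured genes. For the C/EBP motif these shares were 10.8%, 9.24% and 9.91%, and for the heat shock motif 0.0%, 0.0% and 0.515%. A match is a run of letters and does not show a bound site.

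Antigen presentation genes leaned upward. Of 47 measured 4 were higher (8.51%) and 2 lower, 24 lay above 0 on both arrays and 8 below, and the median was 0.23. The 4 were the class I genes RT1-CE16 at 1.31 and 1.44, RT1-A2 at 0.90 and 1.13, RT1-CE2 at 0.60 and 1.21 and RT1-S3 at 0.62 and 0.65. Probes of this family can read near-identical copies, so which copy is measured is uncertain. Psmb9, an immunoproteasome subunit, read 0.57 and 1.22 and missed the rule on array 1, and the peptide transporter Tap1 read 0.23 and 1.27. The lower members were RT1-M2, at -0.84 and -0.87, and Ctss, a protease of class II processing. On the right the list's median was 0.12, and 1 member was higher (2.13%, beside 1.71% of all genes) and 0 lower. That member was RT1-CE16, at 0.98 and 0.81. By the rule within both dye orientations 0 members were higher and 0 lower on the left than on the right. The shares of all genes were 2.59% and 2.26%.

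Complement genes past the rule included 2 higher proteases of the classical pathway and 1 lower chain of its recognition subunit. Of 38 members 4 were higher (10.5%) and 1 lower (2.63%). The median was 0.01, and -0.01 on RefSeq mRNA probes. The proteases C1s and C1r read 1.01 and 1.06, and 0.76 and 1.16. The 3 probes of C1s spanned 0.46 to 1.70, and the lowest read 1.03 and -0.11 on the arrays. C3, the central component, averaged 0.79 ± 0.02 with probes at 0.02 and 1.55, and C5ar1, the receptor of the C5a fragment, read 0.86 and 0.88. C1qa, a chain of the recognition subunit C1q that microglia make, read -0.88 and -0.71. Its partner chains C1qb and C1qc read -0.24 and -0.72, and -0.43 and -0.17, below 0 on both arrays without passing. On the right 0 members of the list were higher and 1 lower (2.63%), beside 1.71% and 1.46% of all genes. There C1r read 1.08 and 0.55, C3 0.83 and 0.52, C5ar1 0.57 and 0.53 and C1s 0.18 and 0.33.

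Lymphocyte and lipid mediator genes had few members past the rule. Among 46 T cell, NK and costimulation genes Cd3e, a chain of the T cell receptor complex, read 0.71 and 0.94, Klrb1b 1.02 and 1.13, and Ly49s7, a killer cell receptor of a large rat family, -1.52 and -1.76. In the list of 38 prostaglandin, leukotriene and phospholipase genes the phospholipase Pla1a was higher at 2.18 and 2.35. Ptgs1, the constitutive cyclooxygenase that microglia express, was lower at -0.97 and -1.05, and Ptgs2, the inducible one, read 0.65 and -0.93.

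**Figure D3:**
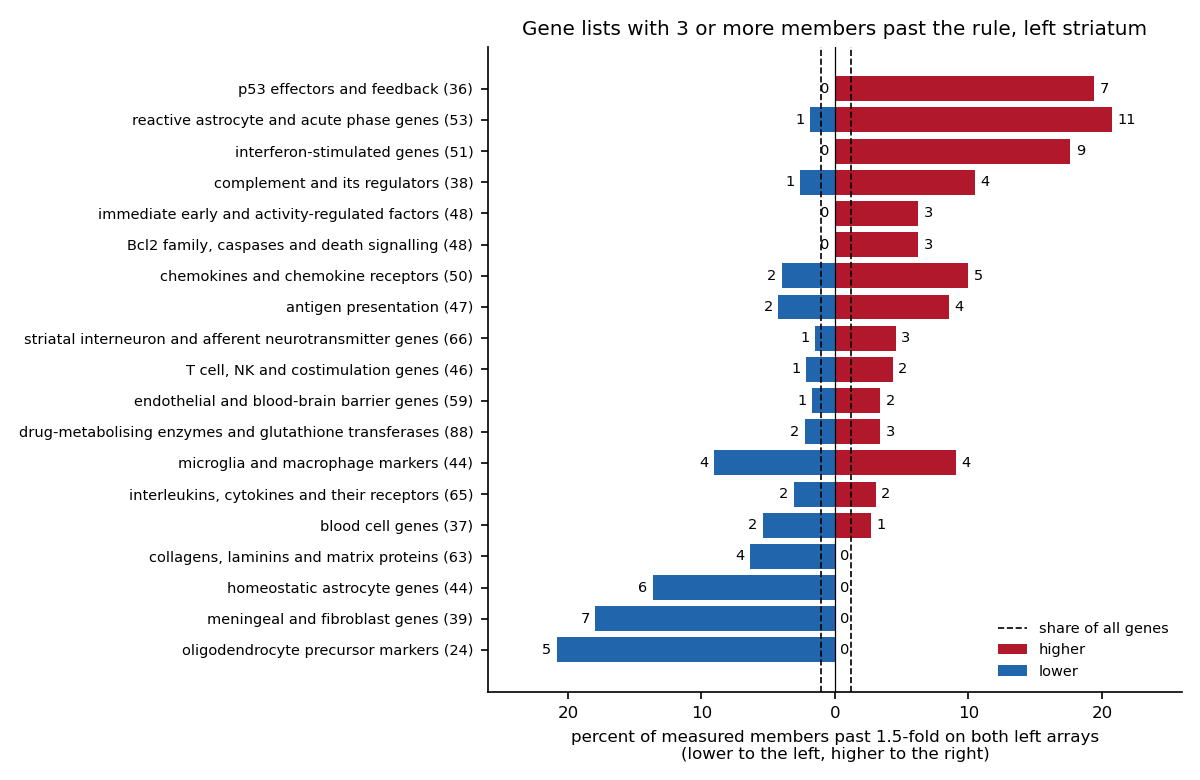
Bars give the percent of each list's measured members (number in brackets) past 1.5-fold on both left arrays, higher to the right and lower to the left, with counts at the bar ends and dashed lines at the shares of all genes (1.18% and 1.03%). Reactive astrocyte, p53 and interferon lists reach furthest to the right, and oligodendrocyte precursor, meningeal and homeostatic astrocyte lists furthest to the left.

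Genes of reactive astrocytes and of the acute phase were higher while genes of homeostatic astrocytes were lower. Of 53 reactive and acute phase genes 11 were higher (20.8%) and 1 lower (1.89%), with 28 above 0 on both arrays and a median of 0.14. Of 44 homeostatic genes 0 were higher and 6 lower (13.6%), with 30 below 0 on both arrays, 2 above, and a median of -0.34. Cebpd, an acute phase transcription factor, read 1.77 and 2.08, and its relative Cebpb 0.86 and 1.05. Stat3, the factor that cytokine receptors of the interleukin 6 family activate, read 0.62 and 0.60 over 3 probes. Gfap, the astrocyte intermediate filament, read 0.75 and 1.56.

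Further reactive members past the rule were S100a10 at 0.93 and 0.83, Cp, the ferroxidase ceruloplasmin, at 0.99 and 0.76 over 4 probes, and Aspg at 0.86 and 0.88. Lgals3, the lectin galectin 3, which microglia also make, read 1.95 and 1.29, and Gbp2 belongs to this list as well as to the interferon list. Ggta1, a galactosyltransferase gene, averaged 0.82 ± 0.04, and the lower member was Steap4, a metalloreductase, at -0.63 and -1.89. Gfap, Stat3, Ggta1 and Hspb1 did not pass on RefSeq mRNA probes alone, and Stat3 and Steap4 not by the median over probes. Vim, the filament vimentin, averaged 0.16 ± 0.02, Cd44 read 0.45 and 0.72, and Lcn2, an iron-binding acute phase protein, averaged 0.09 ± 0.03. Serpina3n averaged -0.15 ± 0.04. Several textbook markers of reactive astrocytes were thus not past the rule at 16 h. On the un-irradiated right 6 members of the list were higher (11.3%) and 2 lower (3.77%), beside 1.71% and 1.46% of all genes, with a median of 0.08. Cebpd read 1.05 and 1.0 there, Gfap 0.98 and 1.21, Aspg 1.53 and 0.81 and Lcn2 1.26 and 1.05, while Ggta1 was lower at -0.80 and -0.91. By the rule within both dye orientations 8 members were higher and 3 lower on the left than on the right. The shares of all genes were 2.59% and 2.26%. Pdpn, a mucin-like membrane protein outside the list, read 1.10 and 1.28.

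On the homeostatic side the arrays lay close together for most of the lower genes. Id3, a transcription inhibitor, read -0.91 and -0.76 over 4 probes, and Hes5, a Notch target, -0.89 and -0.74. Cyp4f4 read -0.78 and -0.84, Gjb6, the connexin 30 gene, -0.81 and -0.73, Slco1c1, a thyroid hormone transporter, -0.67 and -0.65, and Grin2c -0.92 and -0.59. Gja1, the connexin 43 gene, averaged -0.34 ± 0.04, the glutamate transporter Slc1a3 -0.32 ± 0.08 and S100b -0.45 ± 0.04, all without passing. Aqp4, the water channel, averaged 0.02 ± 0.06 and Aldh1l1 -0.05 ± 0.13. On the right Gjb6 read 0.04 and 0.28 and Hes5 -0.32 and 0.06, and the list's right median was -0.13 with 0 members past the rule.

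Microglia and macrophage genes went both ways, with 4 of 44 higher and 4 lower (9.09% each) and a median of -0.09. Lower were P2ry12, Slc2a5, C1qa and Ctss, which microglia express at rest. Slc2a5, the fructose transporter, read -1.29 and -1.27, and Ctss -0.70 and -0.87. Higher were genes of activated phagocytes: Spp1, which encodes osteopontin, at 1.82 and 1.48, Lgals3, Gpnmb at 1.48 and 1.0, and the inhibitory Fc receptor Fcgr2b at 0.79 and 0.90. By probe Gpnmb averaged 0.30 and 2.18, and only the latter probe was past the rule. Slamf9 and Plek, myeloid genes outside the list, read 0.86 and 2.0, and 1.42 and 1.16, while Clec4a1 read -0.85 and -1.14. On the right Slamf9 was past the rule too at 1.37 and 0.86, while Plek read 0.58 and 0.15 and Clec4a1 -0.20 and 0.22.

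Shared markers of microglia differed less. Csf1r, the receptor of Csf1, read -0.27 and -0.40, Aif1, which encodes Iba1, -0.26 and -0.37, and Trem2 -0.35 and -0.54. Cx3cr1, the fractalkine receptor, averaged -0.18 ± 0.17, and Tyrobp, the adaptor of Trem2, 0.06 ± 0.11. Tmem119 read -1.11 and 0.10, so its arrays differed in sign. None of these 6 genes passed. On the right P2ry12 read -1.14 and -0.97, lower there too, and Slc2a5 -0.50 and -0.43.

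Oligodendrocyte precursor genes had the largest share of lower members among the lists drawn in the bar chart. Of 24 measured 5 were lower (20.8%) and 0 higher, 14 lay below 0 on both arrays and 3 above, and the median was -0.35. After Pdgfra came Neu4, a sialidase, at -1.53 and -1.37. Vcan, the proteoglycan versican, read -0.97 and -0.84, Bcas1, which marks newly forming oligodendrocytes, -0.74 and -1.11, and the lineage factor Olig1 -0.86 and -0.88. Cspg4, the NG2 proteoglycan, read -0.99 and -0.53 and missed the rule on array 2, while Olig2 and Sox10 averaged -0.43 ± 0.12 and -0.35 ± 0.02. On the right Pdgfra read -0.83 and -0.96 and was past the rule as well, Neu4 -0.73 and -0.51, and the right median of the list was -0.25.

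Genes of myelinating oligodendrocytes shifted as a group by less. Of 38 measured 1 was lower and 0 higher, 23 lay below 0 on both arrays and 4 above, and the median was -0.22. Tspan2, a tetraspanin of myelin, was the lower gene at -0.88 and -0.74. Mobp, a myelin structural protein, averaged -0.58 ± 0.04 over 3 probes, and Cnp -0.47 ± 0.12. Mbp, the myelin basic protein gene, read -0.90 and -0.22, whereas Mog read 0.34 and 0.47, above control on both arrays. The right median of this list was -0.27, so the left was not below the right.

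**Figure D4:**
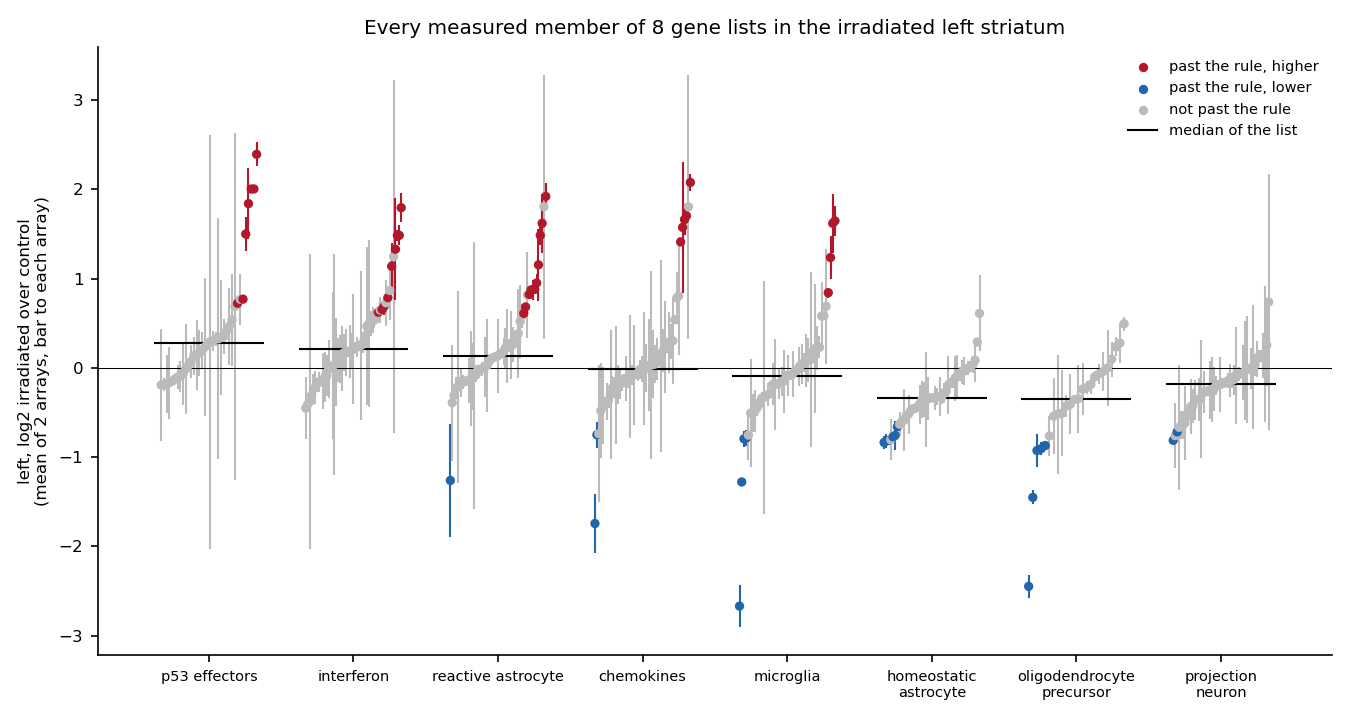
Each point is 1 measured gene as the mean of the 2 left arrays, in log2 of irradiated over control left striatum, with a bar reaching to each array. Members are sorted within each of 8 lists, red and blue points are past the rule, and black lines are list medians (0.28 for p53 effectors, -0.34 for homeostatic astrocytes, -0.35 for oligodendrocyte precursors). Long grey bars are genes whose arrays disagreed.

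Projection neuron genes, which identify the tissue, leaned below control on the left with few members past the rule. The files give ratios, so the tissue label could be read only from how these genes compared with control. Of 50 measured markers and dopamine signalling genes 2 were lower (4%) and 0 higher. Below 0 on both arrays lay 26 and above 2, with a median of -0.18. The lower genes were Rgs9, which shuts off dopamine receptor signalling, at -0.84 and -0.78, and the sodium channel subunit Scn4b at -0.72 on either array. Drd1 and Drd2, the dopamine receptors, averaged 0.13 ± 0.07 and -0.16 ± 0.04. Pde10a, the striatal phosphodiesterase, read -0.80 and -0.48 and Adora2a, an adenosine receptor, -0.64 and -0.44, both short of the rule on array 2. On the right 9 members were lower (18%) and 0 higher, beside 1.46% and 1.71% of all genes, and the median was -0.46. By the rule within both dye orientations 4 members were higher and 0 lower on the left than on the right. The shares of all genes were 2.59% and 2.26%.

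Other neuronal lists had few members past the rule. Among 66 genes of interneurons and afferents 3 were higher (4.55%) and 1 lower (1.52%), with 24 above 0 on both arrays and 12 below. These were the neuropeptides Crh (corticotropin-releasing hormone) at 1.51 and 0.64 and Nts (neurotensin) at 0.75 and 0.65, the tachykinin receptor Tacr3 at 0.73 and 0.75, and Tph2, the serotonin-synthesising enzyme of raphe neurons, at -0.70 and -1.01. Gad1, the GABA-synthesising enzyme, read 0.63 and 0.37. On the right 7 members of this list were higher (10.6%) and 2 lower (3.03%), beside 1.71% and 1.46% of all genes. Tacr3 and Tph2 were among these members. Glutamate and GABA receptors had 0 of 57 higher and 1 lower, which was Grin2c, and channels had 0 of 82 higher and 1 lower, which was Scn4b. Synaptic vesicle genes had 0 of 59 past the rule and axon guidance genes 0 of 64.

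Immediate early and activity-regulated genes were higher in 3 of 48 and lower in 0 (6.25%), with a median of 0.00. Atf3, a stress-induced repressor, read 3.71 and 2.04, Fos 1.37 and 0.83, and Bhlhe40, a clock-linked repressor, 0.67 and 0.65. Egr1 averaged -0.11 ± 0.02, Nr4a1 -0.16 ± 0.04, Arc -0.55 ± 0.17 and Jun 0.26 ± 0.13, none past the rule. Of 56 genes of the MAP kinase pathway and its phosphatases 0 passed. On the right Atf3 read 1.14 and 0.36 and Fos -0.49 and 0.37.

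Vascular genes lay slightly below control. Of 59 endothelial and blood-brain barrier genes 2 were higher (3.39%) and 1 lower (1.69%), while 29 lay below 0 on both arrays and 14 above, with a median of -0.14. Icam1, the leukocyte adhesion molecule, read 0.87 and 0.83, and Flt4, a receptor of lymphatic growth factors, 0.82 and 0.62. Tfrc, the transferrin receptor, was lower at -0.71 and -0.75 over 5 probes that spanned -1.58 to -0.27, and did not pass on RefSeq mRNA probes alone (-0.45). Cldn5, the tight junction claudin, averaged -0.43 ± 0.01 and Flt1 -0.33 ± 0.0047, and Vcam1, another adhesion molecule, read -0.49 and -0.42, so Icam1 and Vcam1 lay on opposite sides of 0. Slc2a1, the glucose transporter of the barrier, averaged 0.02 ± 0.01. Coagulation and vascular tone genes had 0 of 55 past the rule. Adamts1, a metalloproteinase that cleaves versican and inhibits angiogenesis, read 2.26 and 1.26.

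Growth factor and matrix genes had lower members only. Of 74 growth, angiogenic and neurotrophic factors 2 were lower, Fgf8 and Fgf5, at -1.67 and -0.79, and -1.11 and -0.68. Of 63 collagens, laminins and matrix proteins 4 were lower (6.35%) and 0 higher. Col5a3, a fibrillar collagen chain, read -1.42 and -1.02, and the small proteoglycans Dcn, Ogn and Bgn read -0.82 and -1.33, -0.59 and -0.94, and -0.68 on either array. Dcn did not pass on RefSeq mRNA probes alone (-0.41). Dcn, Ogn and Bgn also mark the meninges, the membranes around the brain that a dissection can include.

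Markers of neighbouring tissue therefore stand beside these results. Of 39 meningeal and fibroblast genes 7 were lower (17.9%) and 0 higher on the left, with a median of -0.26. On the right 7 were higher (17.9%) and 1 lower (2.56%), beside 1.71% and 1.46% of all genes. The right median was 0.32. The 7 lower genes on the left were Pdgfra, Foxc1, Dcn, Ogn, Gjb2, Bgn and Alpl, and Foxc1 read -0.91 and -2.18. Pdgfra is in both this list and the precursor list, since fibroblasts express it too. The collagen genes Col1a1 and Col3a1 averaged -0.31 ± 0.09 and -0.33 ± 0.22. Of 31 cortical excitatory neuron genes 1 was lower, Emx2 at -0.72 and -0.63, and 0 were higher on the left. On the right 9 of them were higher (29.0%) and 0 lower. Choroid plexus and ependymal genes had 1 of 44 higher, the cilium gene Rsph1, and Ttr, the main choroid transcript, averaged 0.05 ± 0.04. Blood cell genes had 1 of 37 higher and 2 lower, and the haemoglobin gene Hbb read 0.99 and -0.50. The part of the meningeal difference in the lower glial and matrix genes was not tested.

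Heat shock and unfolded protein genes leaned upward with almost no member past the rule. Of 61 heat shock proteins and co-chaperones 28 lay above 0 on both arrays and 4 below, with a median of 0.11. Across all genes 23.0% lay above 0 on both arrays and 23.0% below. The small heat shock protein gene Hspb1 was the 1 past the rule, at 0.71 and 0.66. Hspa1a, the inducible Hsp70, read 0.42 and 1.10. Proteasome and ubiquitin ligase genes leaned the same way, with 31 of 61 above 0 on both arrays, 4 below, a median of 0.12 and 0 past the rule. In the unfolded protein and integrated stress list of 57 genes the amino acid transporter Slc7a3 was higher at 0.86 and 1.02 and Phgdh, the first enzyme of serine synthesis, lower at -0.86 and -0.63. Asns and Hspa5 averaged 0.33 ± 0.01 and 0.24 ± 0.01. On the right Slc7a3 was past the rule too, at 0.95 and 0.92.

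Metabolic lists showed isolated genes. Hmox1, haem oxygenase 1, read 0.50 and 0.67 and fell short on array 1, and Nqo1, another antioxidant enzyme, averaged -0.01 ± 0.22. In the cholesterol and lipid list of 78 genes Ch25h, which makes an immune-regulating oxysterol, was higher at 0.76 and 0.99, and Stard4, a sterol carrier, lower at -0.80 and -0.81, with 33 members below 0 on both arrays and 14 above. Respiratory chain genes had 0 of 87 past the rule and a median of 0.01. The glucocorticoid-induced genes Sgk1 and Fkbp5 averaged 0.06 ± 0.01 and -0.01 ± 0.08. Among other list members past the rule, the xenobiotic enzyme genes Cyp3a23-3a1 at 1.69 ± 0.34, Akr1c2 at 1.22 ± 0.04 and Ephx1 at 0.75 ± 0.10 were higher, and Cyp2c12 was lower at -0.93 ± 0.31 but did not pass on its RefSeq mRNA probe. Lower too were the chromatin protein gene Hmga2 at -2.01 ± 0.38, the testis lactate dehydrogenase gene Ldhc at -1.19 ± 0.55 and the muscle genes Tnni3 and Neb at -1.05 ± 0.10 and -0.91 ± 0.29. The right arrays of Hmga2 read -2.05 and 1.76, far apart.

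Large receptor families show how often the rule is met by genes with little or no known striatal role. Of 1094 olfactory receptor genes 6 were higher (0.548%) and 10 lower (0.914%), below the background, and their median distance to either array was 0.291 against 0.166 for all genes. Of 47 vomeronasal receptors 2 were higher (4.26%) and 3 lower (6.38%), above the background. Among 76 ribosomal protein genes 0 passed, with a median distance of 0.0542. Top-ranked lower genes such as Or10d5j, Vom2r44, Or10k2 and Vom1r100 belong to these receptor families and had 1 probe each.

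Set beside the un-irradiated right side, many left values were the larger, and since the genes were chosen by their left values the counts lean that way by construction. Of the 175 higher genes 122 lay above their right value in both dye orientations, and 51 did so past 1.5-fold. Of the 153 lower genes 97 lay below it, and 36 past 1.5-fold. The 175 shared 32 genes with the 255 that were higher on the right, and the 153 shared 20 with the 217 that were lower there, which are 1.71% and 1.46% of all genes. Right medians were 0.40 for the 175 and -0.33 for the 153. The right side came from the same irradiated rats and its control from the control rats, so the 2 sides are not independent. Mx1 at 0.62 ± 0.0028 on the left had a right mean of -0.19, Rhbdl2, a rhomboid protease, 1.85 ± 0.0087 on the left beside 0.32 on the right, Isg15 1.80 ± 0.16 on the left beside 0.82 on the right, and Tyms 1.55 ± 0.20 on the left beside 0.61 on the right. By contrast Ccl19 stood at 1.41 ± 0.05 on the left beside 1.39 on the right, Aspg at 0.87 ± 0.01 on the left beside 1.17 on the right, Gfap at 1.16 ± 0.40 on the left beside 1.10 on the right and Mlf1 at 1.62 ± 0.20 on the left beside 1.53 on the right. These 4 genes were about as far above control on the side that was not targeted.

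**Figure D5:**
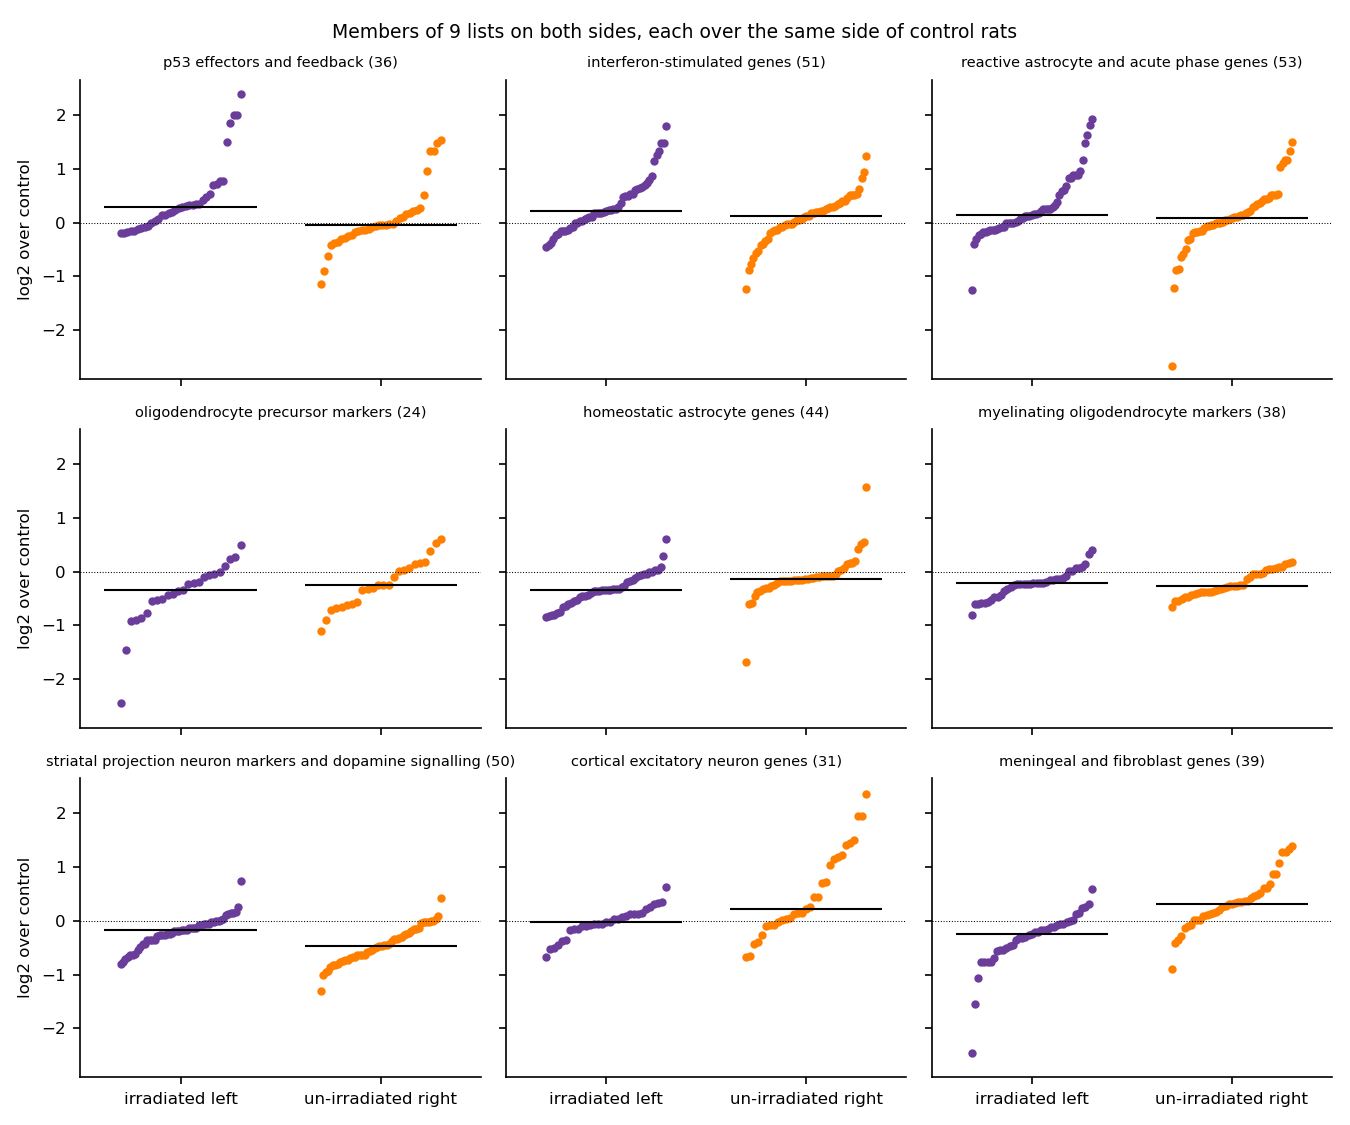
Each point is a measured gene of 1 of 9 lists, as the mean of 2 arrays in log2 over the same side of control rats, sorted within the irradiated left striatum (purple) and the un-irradiated right striatum (orange). Black lines are list medians: for meningeal genes -0.26 on the left and 0.32 on the right, for projection neuron genes -0.18 on the left and -0.46 on the right, for p53 effectors 0.28 on the left and -0.04 on the right, where 5 of the 36 p53 genes were still past the rule upward.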

How the data were processed

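Total RNA of rat striata was hybridised to Agilent rat arrays with 43628 features. Agilent Feature Extraction 8.1 is named in the submitters' processing notes, without its settings. The deposited values have no stated base, direction or centring. They were read as log10 ratios of Cy5 over Cy3, as that software writes, and converted to log2. As deposited, the log10 median was 0.00418 on left array 1, 0.00444 on left array 2, 0.00832 on right array 1 and 0.0111 on right array 2. The sign of array 2 was turned to follow the dyes in the labels. Over 5654 genes with several probes, different probes of a gene correlated at 0.163 in the half-difference of the left arrays and at 0.0380 in their half-sum. No intensities were used, so background and saturation are unknown, and precision is limited by there being 2 arrays. Genes were named from the platform annotation, with symbols updated by identifier from RefSeq (GRCr8): 23535 features had 1 gene, 48 several and 20045 none, giving 14878 genes.

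Named are the 30 genes per direction with the largest smaller value of the 2 arrays, list members past the rule, genes with all of several probes past it, and defining genes of each list. A few other genes past the rule were named after their values were seen. The members and the 53 lists were chosen with earlier results of these data known. Python 3.11.15, numpy 2.4.6 and pandas 2.3.3 were used, and the calculation was tested on simulated dye swaps. Alternatives tried were other thresholds, single arrays, centring, probe summaries, the direction of array 2 and the log base.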

Additional observations from a re-analysis of the deposited data

Results flagged for a closer look

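For 11 genes both left arrays were past 1.5-fold from control in 1 direction and both right arrays in the other. The difference between the sides was not tested. Means of the irradiated left and then of the un-irradiated right are given. Higher on the left and lower on the right were 5 of them. Akr1c2, an aldo-keto reductase, stood at 1.22 (left) and -0.96 (right), and the cytochrome P450 gene Cyp3a23-3a1 at 1.69 (left) and -1.96 (right). Alox12b, a skin lipoxygenase, stood at 0.97 (left) and -1.63 (right), Fam50b at 1.46 (left) and -2.43 (right), and the galactosyltransferase gene Ggta1 at 0.82 (left) and -0.85 (right) over 3 probes.

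Lower on the left and higher on the right were the other 6. Ogn, the proteoglycan osteoglycin, stood at -0.76 (left) and 1.06 (right), and Gjb2, the connexin 26 gene, at -0.77 (left) and 0.86 (right); both are on the meningeal list. Madcam1, an adhesion molecule of mucosal vessels, stood at -0.99 (left) and 1.82 (right), and Cnmd, which encodes chondromodulin, at -0.74 (left) and 0.69 (right). Bpifb3 stood at -1.38 (left) and 1.17 (right), and the olfactory receptor gene Or10d5j at -1.59 (left) and 1.57 (right).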

How the results depend on the processing

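With 1 pair of RNAs there is no error between animals. No paired analysis was possible because each side has 1 replicate and no test was made. From the 175 higher and 153 lower genes the counts moved to 49 and 28 past 2-fold, 594 and 462 by the mean alone, 1699 and 1205 on array 1 alone, 1048 and 1364 on array 2 alone, and 12 and 6 with every one of several probes past the rule. If array 2 was not turned, 499 were higher and 350 lower, and if the values were log2 as deposited, 10 and 2. Centring gave 176 and 151, the median over probes 175 and 150, RefSeq mRNA probes 200 and 163. Restricted, after seeing the data, to genes whose right arrays lay within 1.0 of each other, 129 were higher and 86 lower. Left over right, 386 genes were higher and 336 lower, and past 2-fold 114 and 105.

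Of the 153 named genes that passed the rule, 0 changed sign by centring or by the median over probes, nor did any of the 147 with a RefSeq mRNA probe. On single arrays the rule itself fixes their sign. Centring took Gata1 and Grin2c below the rule, the median over probes Ccl2, Krt10, Nlrp3, Stat3 and Steap4, and RefSeq mRNA probes Atg16l1, Cyp2c12, Dcn, Gfap, Ggta1, Hspb1, Kif2c, Krt10, Stat3 and Tfrc. Of 53 list medians 18 changed sign under single arrays, centring, the median over probes or RefSeq mRNA probes. These lay within 0.1 of 0, and the 17 farther away kept theirs. With array 2 not turned, chosen after seeing the data, the median was -0.01 for p53 effectors, -0.06 for interferon-stimulated genes, -0.02 for reactive astrocyte genes, -0.03 for homeostatic astrocyte and for oligodendrocyte precursor genes, and 0.15 for double-strand break repair.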

Other observations

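Among lower genes outside the lists, several are known from astrocytes. Tril, a Toll-like receptor accessory protein, averaged -1.05 ± 0.10 over 3 probes, Plpp3, a lipid phosphatase, -0.66 ± 0.07 over 4 probes, and Fam107a -0.84 ± 0.14. The carbonic anhydrase gene Car4, which brain capillaries express, averaged -0.93 ± 0.05, and Apln, the endothelial peptide apelin, -0.70 ± 0.05. Rgcc, a regulator of the cell cycle, averaged -1.22 ± 0.15.

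Higher genes outside the lists included Capg, an actin-capping protein of macrophages, at 0.93 ± 0.05 over 3 probes that spanned 0.31 to 1.60. Tubb6, a beta tubulin, averaged 1.35 ± 0.21, with its 2 probes at 0.51 and 2.19. Sbno2, a gene induced by interleukin 10 in macrophages, averaged 1.2 ± 0.53. On the right Tubb6 was past the rule too at 0.65 and 1.10, while Capg averaged 0.71 and Sbno2 0.21 without passing. Grp, the gastrin-releasing peptide gene, averaged 1.17 ± 0.25 on the left and 1.59 on the right, and the nociceptin precursor Pnoc 0.86 ± 0.15 on the left and 1.04 on the right. Scg2, a granin of secretory vesicles, averaged 0.73 ± 0.10 on the left and 0.17 on the right. These genes were chosen after their values were seen.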
